A study of Caenorhabditis elegans with 24 samples.

Results

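The genes described here encode the saposin-like proteins (spp) and the lysozymes (lys and ilys) of Caenorhabditis elegans. Every gene with such a symbol was included, but the families were chosen with earlier results of these data known. Of 44968 identifiers in the count files, 43 carried such a symbol, comprising 27 spp, 10 lys and 6 ilys genes. A gene was taken as measured if it exceeded 1 CPM (a unit that gives the gene's count as a share of the reads counted on genes in that library, scaled to a common total) in at least 4 of the 24 libraries, and 37 members were measured (23 spp, 9 lys and 5 ilys). They are among 19050 genes that passed the same filter and were tested. A further 4 symbols of these families in the reference annotation, spp-26, spp-27, spp-28 and spp-30, did not match an identifier and were not analysed here.

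Saposin-like proteins are small, disulfide-bonded proteins that bind membrane lipids, and those of the worm that form pores in bacterial membranes are called caenopores. Lysozymes cut the peptidoglycan of the bacterial cell wall, and the worm has protist-type (lys) and invertebrate-type (ilys) enzymes. Many members of both groups are made in the intestine, where they meet ingested bacteria, and they are known both from digestion and from defence against pathogens.

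RNA was sequenced from whole L1 larvae of strain LRB269, which carries glc-1(pk54), avr-14(vu47), avr-15(vu227) and glc-3(ok321), mutations in glutamate-gated chloride channels through which ivermectin acts, and the transgene dukIs10, in which the myo-2 promoter drives avr-15 and mCherry in the pharynx and the hlh-8 promoter drives GFP, a design meant to let ivermectin block pumping of the pharynx and thus ingestion. There were 4 libraries in each of 6 conditions. Without ivermectin, larvae were given Escherichia coli HB101 at 25 mg/mL for 1 h (F) or left without bacteria and sampled at the same time (S). In ivermectin at 5 ng/mL, larvae were given the same bacteria for 1 h or 24 h (IvF) or left without bacteria and sampled at those times (IvS). Ivermectin or DMSO, its solvent, was present from the embryo on, and all larvae hatched and arrested without food before bacteria were added. Times are counted from the addition of bacteria, 24 h after the embryos were prepared. Time in ivermectin and time without food were therefore longer than the times named. The libraries are described as biological replicates. F against S asks what feeding does to a gene, and IvF against IvS asks what food does when it can be sensed but not eaten. Ingestion cannot be read from these counts, and the study's methods name a higher ivermectin dose for this strain in other experiments than in the sequencing. Because whole larvae were sequenced, fewer cells of a type and less RNA per cell cannot be told apart.

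Libraries with and without ivermectin differed in more than the drug. Replicates without ivermectin are numbered 1 to 4 in the labels and those with it have other numbers, here called A to D. Libraries without ivermectin had 8690378 to 14139935 reads on genes and those with it 14498061 to 19448998, and reads that could not be given to a single gene made up 6.59% to 10.2% and 2.97% to 3.68% of aligned reads. Differences between libraries with and without ivermectin therefore cannot be told apart from differences between these sets of libraries. Within conditions, S replicate 4 stood apart for several members and IvF replicate A at 1 h for ilys-2, and results that rest on them are given with and without them.

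The abundance of the members spanned a wide range. Per kilobase of coding sequence, averaged over the 6 conditions, spp-14 was the highest at 2283 CPM per kilobase, followed by the caenopore gene spp-5 at 1255, spp-3 at 371, the intestinal lysozyme gene lys-1 at 359, lys-8 at 325, spp-23 at 208, lys-4 at 145, the caenopore gene spp-1 at 137, lys-2 at 132 and spp-10, which encodes a prosaposin-like protein, at 116. At the other end, 8 measured members (spp-4, spp-6, spp-11, spp-12, spp-13, lys-5, lys-6 and ilys-1) lay between 1.94 and 4.58 CPM per kilobase. The ilys genes were low apart from ilys-4 at 95.4 and ilys-5 at 28.2 CPM per kilobase.

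The 6 members that were not measured were spp-7, spp-9, spp-21, spp-29, lys-9 and ilys-6, with condition means of at most 0.82 CPM. At the limit, spp-12 exceeded 1 CPM in 4 libraries and was just inside, while spp-7 and lys-9 did so in 3 and were just outside. By condition mean in CPM, 18 of the 37 measured members were highest in F, 10 in S, 4 in IvS at 24 h, 3 in IvF at 1 h, 1 in IvS at 1 h and 1 in IvF at 24 h. In plain CPM the condition means of lys-8 differed by a factor of 1.49 from lowest to highest and those of spp-10 by 1.54, the smallest ratios of the measured members. Both counts and ratios depend on scaling. After the TMM scaling used for the tests below, spp-10 ran from 121 in IvS at 1 h to 255 in S. Those of lys-7 then ran from 26.5 in F to 45.8 in IvS at 1 h. With that scaling spp-3, spp-16, spp-18 and spp-24 were highest in S rather than in F, and spp-11 in S rather than in IvS at 24 h. It also made lys-8 and spp-13 highest in F rather than in IvF at 1 h and at 24 h.

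Together the 43 members made up 5041 ± 563 CPM in F (SD, n = 4), which is 0.504% of the reads on genes, and 4192 ± 553 CPM in S. With ivermectin at 1 h their summed CPM was 1802 ± 147 with food and 1848 ± 42.7 without it, and at 24 h it was 1386 ± 114 and 1524 ± 143. The summed level of the lys genes was 1939 ± 110 CPM in F and 748 ± 321 in S, and that of the spp genes was 2979 ± 481 in F and 3388 ± 635 in S. These sums are dominated by spp-14, spp-5, lys-1 and lys-8, and were not tested.

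Feeding for 1 h moved members in both directions. Between F and S, 6 of the 37 measured members were higher in F and 8 were lower. A gene was called at an adjusted p under 0.05 with a log2 fold change beyond 0.5 in either direction, and of all tested genes 13.6% were higher, 15.4% lower and 29% either. By CPM the libraries of F and S did not overlap in 11 members that were higher in F and 7 that were lower, and in 16.4% and 8.12% of all tested genes. The genes that rose were spp-17, spp-23, spp-25, lys-1, lys-2 and ilys-5, and those that fell were all spp genes, namely spp-1, spp-2, spp-5, spp-8, spp-10, spp-11, spp-15 and spp-31. The median log2 fold change was 0.12 over the 37 members and -0.07 over all genes. Fold changes here and below are on the log2 scale and come from TMM-scaled counts and p from edgeR's quasi-likelihood test with Benjamini-Hochberg adjustment over 19050 genes, while levels are plain CPM. Plain CPM shifts the log2 fold change of every gene against these values, by 0.20 for F against S, 0.01 for IvF against IvS at 1 h and 0.10 at 24 h, -0.06 for IvS and 0.03 for IvF over time, -0.28 for F against IvF and -0.46 for S against IvS, and each called member had the same direction in mean CPM.

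The largest difference was that of spp-23, a short saposin-like gene. It was at 468, 315, 298 and 433 CPM in F and at 2.19, 2.58, 2.24 and 0.572 CPM in S. Every F library was thus far above every S library, with means of 379 ± 84.9 and 1.896 ± 0.899 CPM (SD, n = 4). The log2 fold change was 7.39 ± 0.56 (SE, adjusted p = 1.8e-09). Its neighbour on chromosome I, spp-17, stood at 149.8, 78.2, 43.9 and 70.7 CPM in F against 4.597, 3.76, 3.32 and 3.78 CPM in S, again without overlap, and rose by 4.29 ± 0.45 (SE, adjusted p = 1.6e-07). F replicate 1 was the highest of the F libraries for both genes.

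Among lysozymes, lys-1, which is expressed in the intestine and known from responses to infection, was at 1034, 854, 757 and 832 CPM in F and 360.3, 326, 274 and 73.00 CPM in S. Libraries did not overlap, and S replicate 4 was well below the other S libraries. The log2 fold change was 1.51 ± 0.37 (SE, adjusted p = 0.0026), and 1.20 ± 0.26 (SE, adjusted p = 9.9e-04) without S replicate 4. The adjacent lys-2 had 482, 456, 361 and 484 CPM in F and 127, 108, 96.4 and 16.02 CPM in S, so that the lowest F library was above the highest S library. It rose by 2.10 ± 0.40 (SE, adjusted p = 2.4e-04) on the log2 scale, and by 1.76 ± 0.23 (SE, adjusted p = 1.7e-06) without S replicate 4, which was again the lowest.

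The invertebrate-type lysozyme gene ilys-5 was at 61.6, 49.4, 26.6 and 52.1 CPM in F and 8.84, 9.02, 5.56 and 5.72 CPM in S. All F libraries exceeded all S libraries, and its log2 fold change was 2.51 ± 0.42 (SE, adjusted p = 6.3e-05). A smaller rise was that of spp-25, with 27.8, 21.1, 22.97 and 23.2 CPM in F and 13.2, 11.8, 9.46 and 15.6 CPM in S. It did not overlap either, but the log2 fold change of 0.75 ± 0.24 (SE, adjusted p = 0.017) had an adjusted p of 0.072 without F replicate 1 and 0.054 without S replicate 2.

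**Figure D1:**
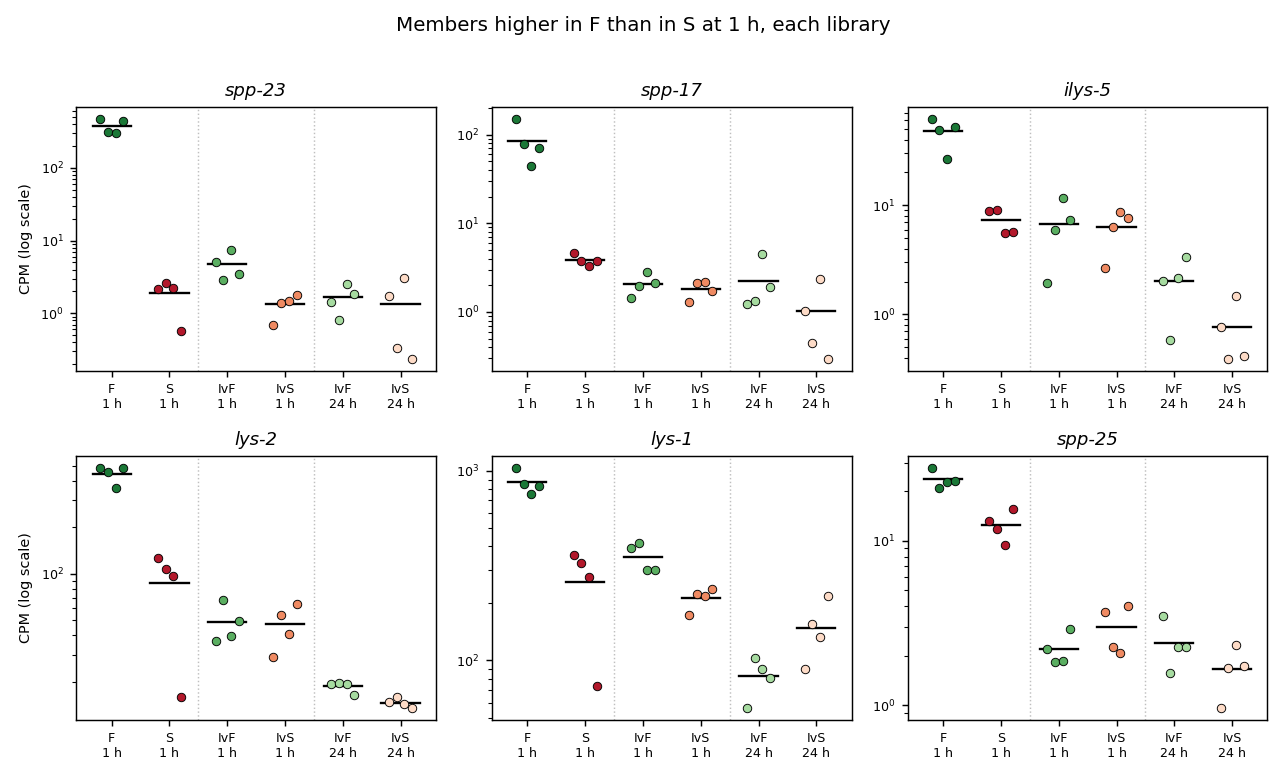
Points are CPM (log scale) of the 6 members called higher in F than in S, 1 point per library, by condition, and bars are condition means. The 4 F libraries of spp-23 lie between 298 and 468 CPM, whereas no other library exceeds 7.53 CPM for this gene.

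Of the members that fell with feeding, spp-1 and spp-5 encode caenopores with pore-forming, antibacterial activity. For spp-1 the F libraries were at 71.6, 53.05, 58.1 and 69.3 CPM and the S libraries at 134, 87.5, 105 and 97.3 CPM. The 2 sets did not overlap, and the log2 fold change was -0.97 ± 0.20 (SE, adjusted p = 5.6e-04). For spp-5 they were at 723, 624, 552 and 795 CPM in F and 1059, 839, 801 and 1409 CPM in S, and S replicate 4 was the highest of all. The difference in spp-5, -0.79 ± 0.22 (SE, adjusted p = 0.0064), was weaker and the libraries nearly touched, and with an offset for exon length it was -0.52 ± 0.23 (SE, adjusted p = 0.090).

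The largest fall was that of spp-2, which lies between spp-3 and spp-6 on the X chromosome. It was at 5.89, 7.36, 9.99 and 20.6 CPM in F and 72.9, 50.03, 53.6 and 65.6 CPM in S. Libraries did not overlap, and the log2 fold change was -2.70 ± 0.53 (SE, adjusted p = 3.7e-04). In contrast, the neighbouring spp-3, which is more abundant, had 302, 248, 214 and 254 CPM in F and 295, 246, 227 and 195 CPM in S. Its libraries overlapped and its log2 fold change was -0.13 ± 0.21 (SE, adjusted p = 0.69), which did not pass the test.

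The fall of spp-8 was larger with S replicate 4 than without it. Its F libraries were at 85.5, 79.3, 131 and 91.97 CPM and its S libraries at 128, 178, 119 and 610.2 CPM, with the highest F library above the lowest S library. The log2 fold change of -1.51 ± 0.33 (SE, adjusted p = 0.0010) became -0.77 ± 0.22 (SE, adjusted p = 0.0073) without S replicate 4. A smaller fall was that of spp-10, with 152, 143, 157 and 151 CPM in F and 234, 203, 164 and 201 CPM in S. That gene, whose protein resembles prosaposin, changed by -0.61 ± 0.16 (SE, adjusted p = 0.0041) without overlap, and it was no longer past the fold change threshold without S replicate 1.

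For spp-15 the F libraries were at 16.6, 14.6, 12.8 and 22.8 CPM and the S libraries at 55.9, 33.8, 33.7 and 53.9 CPM. Those ranges did not overlap and the log2 fold change was -1.61 ± 0.27 (SE, adjusted p = 4.8e-05). Exons of spp-15 overlap those of C48E7.6 on the opposite strand over 243 bases, and since the libraries were non-directional, reads of the pair cannot be told apart there. Levels of spp-31 were 10.1, 9.09, 9.32 and 8.65 CPM in F and 20.4, 12.4, 15.3 and 35.7 CPM in S, without overlap, with a log2 fold change of -1.34 ± 0.22 (SE, adjusted p = 3.4e-05) and of -1.06 ± 0.20 (SE, adjusted p = 1.9e-04) without S replicate 4. The low spp-11 averaged 0.536 ± 0.243 CPM in F and 2.52 ± 0.963 CPM in S (SD, n = 4) and fell by 2.45 ± 0.45 (SE, adjusted p = 1.5e-04).

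**Figure D2:**
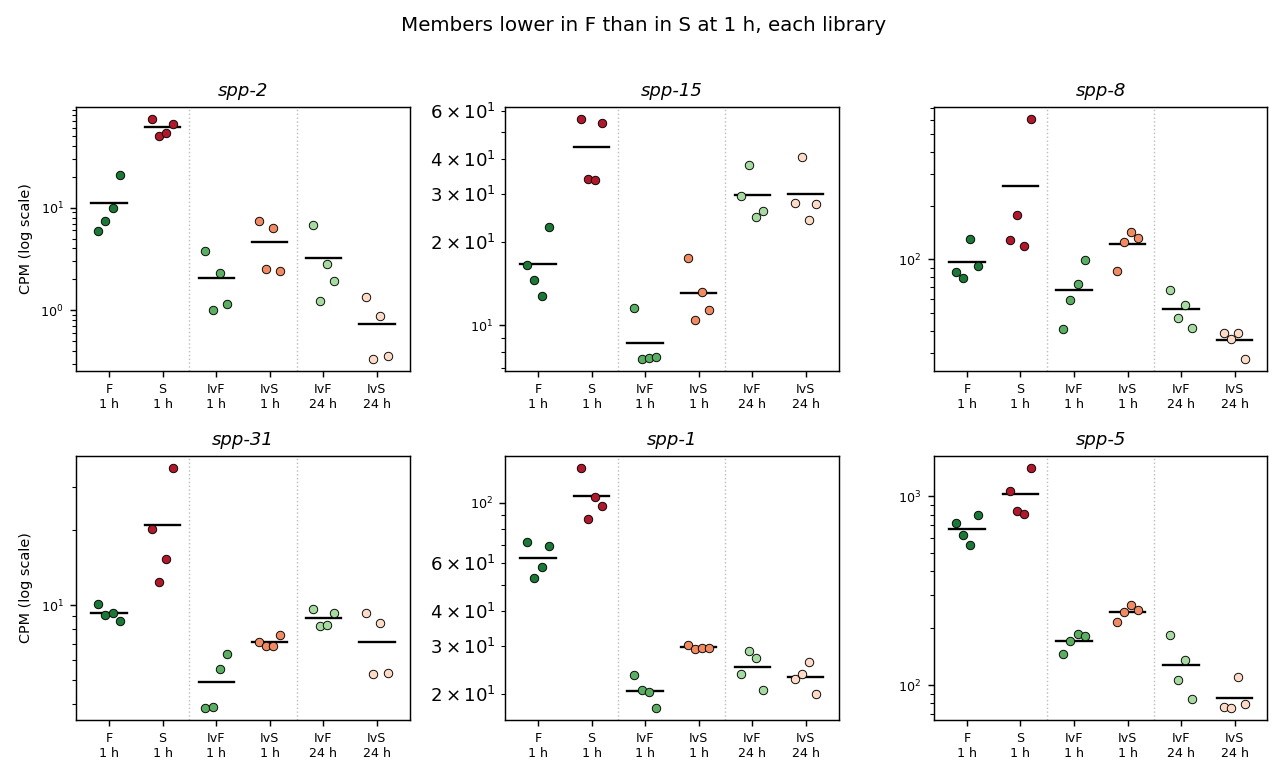
CPM (log scale) of 6 of the 8 members called lower in F than in S is shown by condition, 1 point per library, with bars at condition means. S replicate 4 is the single high point of spp-8 at 610 CPM, and in spp-2 the S libraries at 50.0 to 72.9 CPM stand above all others.

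The other 23 measured members were not called between F and S, and a p that misses the threshold does not show that a level was the same. The most abundant of all, spp-14, was at 1324, 869.9, 939 and 1205 CPM in F and 1696, 1101, 1204 and 1167 CPM in S, which overlapped, with a log2 fold change of -0.47 ± 0.27 (SE, adjusted p = 0.20). The lysozyme gene lys-8, known as a target of the DBL-1 pathway, was at 289.9, 291, 346 and 229 CPM in F and 265, 262, 209.5 and 120.1 CPM in S and had a log2 fold change of 0.21 ± 0.25 (SE, adjusted p = 0.57). Neither differed beyond the spread between libraries. In lys-4 the F libraries, at 242, 272, 339 and 279 CPM, were all above the S libraries, at 179, 164, 158 and 44.2 CPM, yet the log2 fold change of 0.79 ± 0.37 (SE, adjusted p = 0.11) missed the threshold. With the exon length offset lys-4 was called higher in F (adjusted p = 0.035). S replicate 4 was the lowest for lys-4 too. Without that library 16 members and 29.2% of all genes were called, with lys-7 and ilys-3 added on the lower side.

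Without a call, the remaining members had log2 fold changes between -0.86 (ilys-3) and 1.52 (ilys-2), apart from ilys-1, which had 5 reads in all F libraries and 1 in all S libraries. Those of ilys-2 and spp-4 were above 1 but rested on low counts, with condition means of at most 2.45 CPM in F and S. The lysozyme gene lys-7, known as a target of DAF-16/FOXO and from resistance to pathogens, was at 25.6, 22.9, 35.2 and 11.1 CPM in F and 35.9, 36.4, 35.8 and 14.3 CPM in S. F replicate 4 and S replicate 4 were its lowest libraries, and its log2 fold change was -0.61 ± 0.32 (SE, adjusted p = 0.16).

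In ivermectin, few members were called between larvae with and without food. Between IvF and IvS at 1 h, 2 of 37 were higher with food, spp-23 and ilys-2, and none was lower, where 3.27% of all tested genes were higher, 2.29% lower and 5.56% either. Libraries did not overlap in 5 members higher in IvF and 3 lower, and in 7.76% and 8.46% of all tested genes. At an unadjusted p below 0.05 there were 11 members, with 14.2% of all genes. The exact test of edgeR called 2 members and 6.29% of all genes, and DESeq2 called 3, with spp-11 added, and 7.23%. The share of members called, 5.41%, was close to that of all genes.

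In the presence of ivermectin spp-23 was at 5.14, 2.84, 7.53 and 3.47 CPM in IvF and 0.685, 1.38, 1.47 and 1.79 CPM in IvS at 1 h. All IvF libraries were above all IvS libraries, but the levels were near those of S and far from those of F, and the log2 fold change was 1.84 ± 0.51 (SE, adjusted p = 0.035). The call was lost without any one of IvF replicates A and C or IvS replicates A, B, C and D, with adjusted p between 0.067 and 0.12. For ilys-2 the IvF libraries were at 44.6, 3.31, 2.33 and 10.8 CPM and the IvS libraries at 0.872, 0.952, 1.33 and 1.66 CPM. A single library, IvF replicate A, was far above the rest, and the log2 fold change of 3.84 ± 0.85 (SE, adjusted p = 0.0069) was 2.03 ± 0.65 (SE, adjusted p = 0.086) without it. Without IvF replicate A neither of the 2 members was called, where 4.15% of all genes were.

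The other genes that rose with feeding did not pass the test in ivermectin at 1 h. For spp-17 the libraries were at 1.44, 1.94, 2.802 and 2.13 CPM in IvF and 1.31, 2.12, 2.199 and 1.72 CPM in IvS. For lys-2 they were at 36.9, 68.2, 39.7 and 49.9 CPM in IvF and 29.2, 53.9, 40.8 and 64.3 CPM in IvS, and for ilys-5 at 1.95, 5.88, 11.6 and 7.31 CPM in IvF and 2.68, 6.29, 8.598 and 7.66 CPM in IvS. All of these ranges overlapped, and their log2 fold changes were 0.15, 0.06 and 0.01. The libraries of spp-25, at 2.21, 1.84, 1.87 and 2.92 CPM in IvF and 3.67, 2.27, 2.07 and 4.001 CPM in IvS, overlapped as well, with a log2 fold change of -0.45 ± 0.27 (SE, adjusted p = 0.53).

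In 2 lysozyme genes the libraries separated without a call. The IvF libraries of lys-1 were at 393, 417, 299.5 and 300.1 CPM and its IvS libraries at 173, 224, 219.9 and 238 CPM, with a log2 fold change of 0.75 ± 0.36 (SE, adjusted p = 0.35). For lys-4 they were at 90.96, 63.5, 77.9 and 64.6 CPM in IvF and 33.1, 32.2, 58.2 and 45.2 CPM in IvS, with 0.83 ± 0.38 (SE, adjusted p = 0.30). Both were higher in each IvF library than in each IvS library by CPM. A fit of only the IvF and IvS libraries at 1 h called lys-1 with 4 other members, and 6.6% of all genes.

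Of the 8 members that fell with feeding, 7 had negative values in ivermectin at 1 h. None of these passed the test in the fit of all conditions without a replicate block. The libraries of spp-1 were at 23.3, 20.5, 20.2 and 17.7 CPM in IvF and 30.1, 29.1, 29.5 and 29.4 CPM in IvS at 1 h, without overlap, and the log2 fold change was -0.51 ± 0.20 (SE, adjusted p = 0.19). Those of spp-5 were at 146, 170.5, 185.5 and 181.3 CPM in IvF and 216, 242, 265 and 249.9 CPM in IvS, with -0.53 ± 0.22 (SE, adjusted p = 0.21). In spp-31 they were at 3.86, 3.89, 5.55 and 6.34 CPM in IvF and 7.097, 6.82, 6.87 and 7.59 CPM in IvS, with -0.57 ± 0.22 (SE, adjusted p = 0.17). Each of the 3 genes was lower in every IvF library than in every IvS library. The most negative was spp-11, a low gene, at 0.668, 1.16, 0.778 and 2.44 CPM in IvF and 3.73, 2.75, 1.400 and 3.24 CPM in IvS, with -1.21 ± 0.39 (SE, adjusted p = 0.076). It was called lower with DESeq2, with the exon length offset, and without IvF replicate D or IvS replicate C (adjusted p = 0.029, 0.041, 0.023 and 0.046), and spp-5, spp-8 and spp-31 were called lower in a fit of only these conditions (adjusted p = 0.013, 0.015 and 0.048).

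Levels of spp-2 were 3.81, 0.998, 2.28 and 1.16 CPM in IvF and 7.47, 2.54, 6.26 and 2.41 CPM in IvS at 1 h, and those of spp-8 were 40.9, 59.3, 72.6 and 98.8 CPM in IvF and 86.2, 125, 142 and 132 CPM in IvS. For spp-15 the libraries were at 11.5, 7.57, 7.63 and 7.68 CPM in IvF and 17.5, 10.5, 13.2 and 11.4 CPM in IvS. In these 3 genes the ranges overlapped, with log2 fold changes of -1.15, -0.90 and -0.59. Each IvF library of the 3 genes was nevertheless below the IvS library of the same letter, though no pairing was taken here. With the replicate number as a block spp-2 was called lower, at -1.22 ± 0.26 (SE, adjusted p = 0.0058). That block also called spp-1 and spp-11 lower (adjusted p = 0.030 and 0.017). Of the 8 members that fell with feeding, the exception was spp-10, with a log2 fold change of 0.0035. It was at 141, 134, 123 and 122 CPM in IvF and 137, 126, 131 and 129 CPM in IvS. Of the abundant members, spp-14 was at 519, 345, 374 and 269 CPM in IvF and 607, 413, 463 and 351 CPM in IvS. The libraries of spp-3 were at 42.7, 54.1, 59.9 and 49.4 CPM in IvF and 49.6, 66.1, 77.2 and 78.98 CPM in IvS. Those of lys-8 were at 307, 364, 286 and 322 CPM in IvF and 296, 328, 306 and 327 CPM in IvS. These 3 genes were not called here either, and their libraries overlapped.

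Whether the effect of food differed between libraries with and without ivermectin was tested by the interaction of food with ivermectin at 1 h. It was called for 5 of 37 members, where 10.3% of all genes were called (5.31% positive and 5.02% negative), and in all 5 the food effect was more positive without ivermectin. The interaction on the log2 scale was 5.55 ± 0.74 (SE, adjusted p = 4.1e-05) for spp-23, 4.14 ± 0.66 (SE, adjusted p = 2.1e-04) for spp-17 and 2.50 ± 0.59 (SE, adjusted p = 0.0066) for ilys-5. For lys-2 it was 2.04 ± 0.55 (SE, adjusted p = 0.017) and for spp-25 1.20 ± 0.36 (SE, adjusted p = 0.030). That of spp-25 was lost without F replicate 1, S replicates 2 or 3, IvF replicates B or C, or IvS replicates A or D, with adjusted p between 0.051 and 0.079, and that of lys-2 had an adjusted p of 0.055 in a fit of only these conditions. Negative interactions were called only under alternatives. That of spp-10 was -0.60 ± 0.21 (SE, adjusted p = 0.027) with DESeq2 and -0.66 ± 0.21 (SE, adjusted p = 0.039) without S replicate 4. With the replicate number as a block, spp-15 had -0.98 ± 0.30 (SE, adjusted p = 0.036) and spp-2 -1.57 ± 0.35 (SE, adjusted p = 0.0043). Without S replicate 2, spp-15 and spp-31 were called negative. The interaction uses the same libraries as F against S and IvF against IvS, and so is not separate evidence of either. It compares the 2 sets of libraries, so a difference with ivermectin cannot be told apart from one between the sets. Of all genes below 400 bases of exons 1.6% had a positive and 5.91% a negative call, against 9.50% and 3.54% above 2500 bases. With an offset for exon length the same 5 members were called, and 10.8% of genes.

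At the 24 h time point in ivermectin, 1 member was higher in IvF than in IvS and 1 was lower, where 0.777% of all tested genes were called, 0.583% higher and 0.194% lower. Libraries did not overlap in 5 members higher in IvF and 3 lower, and in 4.93% and 1.22% of all tested genes. An unadjusted p below 0.05 was reached by 11 members and 6.52% of all genes. With edgeR's exact test and with DESeq2 4 members were called, with spp-2 added as higher and lys-3 as lower in IvF, and 1.16% and 1.36% of all genes. For spp-20, a low member, the IvF libraries were at 0.982, 0.989, 1.04 and 1.24 CPM and the IvS libraries at 4.05, 6.58, 3.43 and 5.58 CPM. They did not overlap, and spp-20 was lower with food, with a log2 fold change of -2.32 ± 0.30 (SE, adjusted p = 2.8e-05). The libraries of spp-3 were at 47.9, 30.6, 37.3 and 28.3 CPM in IvF and 14.4, 15.3, 19.8 and 17.2 CPM in IvS, so that all IvF libraries were higher, with a log2 fold change of 1.03 ± 0.22 (SE, adjusted p = 0.015). That call was lost without IvF replicate A (adjusted p = 0.12) or IvS replicates A or B (adjusted p = 0.074 and 0.051).

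The effect of food differed between 24 h and 1 h for the same genes by the interaction of food with time in ivermectin, which 2 of 37 members and 0.971% of all genes passed (0.661% positive and 0.31% negative) and which uses the libraries of the comparisons above. It was 1.44 ± 0.30 (SE, adjusted p = 0.015) for spp-3 and -2.54 ± 0.42 (SE, adjusted p = 0.0017) for spp-20. At 1 h spp-20 was at 0.977, 0.893, 1.71 and 1.401 CPM in IvF and 0.996, 1.38, 1.07 and 0.6897 CPM in IvS, which overlapped.

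In ivermectin more members were called with time than with food, and the lys genes that passed the test fell. Without food, 3 of 37 members were higher and 7 lower in IvS at 24 h than at 1 h, where 2.07% and 3.17% of all genes were, 5.24% together. With food, 4 were higher and 7 lower in IvF at 24 h, where 4.2% and 5.72% of all genes were, 9.92% together. The libraries at 24 h did not overlap those at 1 h in 5 members higher and 12 lower in IvS, with 8.75% and 11.8% of all genes, and in 3 higher and 6 lower in IvF, with 14.1% and 8.91% of all genes. In the fit of all conditions none of the 9 measured lys genes was called higher at 24 h in either comparison. There 2 were lower without food (lys-2 and lys-4) and 3 with food (lys-1, lys-2 and lys-4). The low lys-10 averaged 3.12 ± 0.852 CPM in IvS at 1 h and 8.70 ± 4.76 CPM at 24 h (SD, n = 4). It was called higher in IvS with DESeq2, at 1.60 ± 0.58 (SE, adjusted p = 0.046). A fit of only these conditions called it too, at 1.60 ± 0.46 (SE, adjusted p = 0.0497). An unadjusted p below 0.05 was found for 5 of the 9 lys genes in each comparison, and for 17.7% of all genes in IvS and 21.8% in IvF. The numbers A to D pair the IvF libraries across time, as same-numbered libraries deviated together, and values with this pairing are given where it changed a call.

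Of the lys genes called, lys-4 fell the most. It was at 14.2, 9.48, 18.00 and 6.73 CPM in IvF and 8.497, 9.22, 15.1 and 8.31 CPM in IvS at 24 h, and all 8 libraries were below all 8 at 1 h. Its log2 fold change with time was -2.65 ± 0.40 (SE, adjusted p = 1.1e-04) in IvF and -1.99 ± 0.40 (SE, adjusted p = 0.0030) in IvS. For lys-2 the libraries at 24 h were at 19.4, 19.8, 19.5 and 16.3 CPM in IvF and 14.8, 15.9, 14.5 and 13.6 CPM in IvS, also below all libraries at 1 h. It changed by -1.40 ± 0.39 (SE, adjusted p = 0.023) in IvF and -1.60 ± 0.40 (SE, adjusted p = 0.017) in IvS, and the call was lost without IvF replicate B at 1 h or D at 24 h (adjusted p = 0.082 and 0.067) and without IvS replicate D at 1 h (adjusted p = 0.065).

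With food, lys-1 fell to 56.3, 103.6, 89.7 and 80.95 CPM in IvF at 24 h, below every IvF library at 1 h, with a log2 fold change of -2.17 ± 0.38 (SE, adjusted p = 3.9e-04). Without food it was at 90.6, 155, 133 and 218 CPM in IvS at 24 h, with overlap between the times and a log2 fold change of -0.44 ± 0.36 (SE, adjusted p = 0.61). The interaction of food with time for lys-1, -1.72 ± 0.51 (SE, adjusted p = 0.14), did not pass the test, but was called with DESeq2 and in a fit of only these conditions (adjusted p = 0.023 and 0.024). For lys-8 the libraries were at 184.9, 256, 211 and 233 CPM in IvF and 216, 348, 265 and 428 CPM in IvS at 24 h. Its log2 fold change with time in IvF was -0.58 ± 0.25 (SE, adjusted p = 0.15), and it was called lower when the libraries were paired.

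Among the saposin-like genes, several fell with time without food and did not pass the test with food. In IvS at 24 h spp-5 was at 76.2, 75.8, 111 and 79.3 CPM, below all IvS libraries at 1 h, and it fell by 1.46 ± 0.22 (SE, adjusted p = 1.5e-04). In IvF at 24 h it was at 184, 107, 136 and 84.00 CPM, with a log2 fold change of -0.41 ± 0.22 (SE, adjusted p = 0.28), and it was called lower without IvF replicate A at 24 h, at -0.70 ± 0.20 (SE, adjusted p = 0.036). The fall of spp-3 in IvS was -1.97 ± 0.22 (SE, adjusted p = 4.5e-06), while in IvF it was -0.52 ± 0.21 (SE, adjusted p = 0.14) and was called when IvF libraries were fitted alone with the pairing, with the exon length offset, or without IvF replicate A at 24 h. Of these, the interaction of food with time was past the test for spp-3.

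Expression of spp-8 was 67.6, 47.1, 55.9 and 41.5 CPM in IvF and 38.7, 35.96, 38.8 and 27.9 CPM in IvS at 24 h. It changed by -1.72 ± 0.34 (SE, adjusted p = 0.0024) in IvS and by -0.32 ± 0.33 (SE, adjusted p = 0.73) in IvF. For spp-2 the libraries were at 6.82, 1.22, 2.85 and 1.92 CPM in IvF and 1.35, 0.337, 0.884 and 0.356 CPM in IvS, and the log2 fold change was -2.65 ± 0.66 (SE, adjusted p = 0.018) in IvS and 0.59 ± 0.58 (SE, adjusted p = 0.71) in IvF. IvF replicate A was the highest of the IvF libraries for spp-2 at both times. The call of spp-2 in IvS was lost without IvS replicates A or C at 1 h or B or D at 24 h. Its interaction of food with time was not called in the fit of all conditions. With DESeq2 it was called at 3.24 ± 0.79 (SE, adjusted p = 0.0038). The replicate number as a block gave 3.25 ± 0.42 (SE, adjusted p = 2.0e-04), and leaving out IvF replicate A at 1 h gave 3.88 ± 0.86 (SE, adjusted p = 0.031). That of spp-8 was called in a fit of only these conditions, at 1.41 ± 0.31 (SE, adjusted p = 0.026).

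The expression of spp-15 rose with time in both. It was at 29.4, 38.2, 24.7 and 26.1 CPM in IvF and 27.9, 40.7, 24.04 and 27.5 CPM in IvS at 24 h, all above every library of the same kind at 1 h, and rose by 1.72 ± 0.27 (SE, adjusted p = 1.3e-04) and 1.25 ± 0.27 (SE, adjusted p = 0.0049). Levels of spp-31 were 9.61, 8.26, 8.29 and 9.33 CPM in IvF, above all at 1 h, and 9.27, 5.28, 8.46 and 5.34 CPM in IvS. It rose by 0.85 ± 0.22 (SE, adjusted p = 0.012) in IvF, while its value in IvS was 0.05 ± 0.22 (SE, adjusted p = 0.96). In IvS spp-20 rose by 2.30 ± 0.30 (SE, adjusted p = 2.3e-05), and in IvF its value was -0.24 ± 0.30 (SE, adjusted p = 0.82).

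Rises of the low genes spp-6, from 0.273 ± 0.137 to 1.24 ± 0.193 CPM, and spp-11, from 1.26 ± 0.812 to 2.999 ± 1.103 CPM (SD, n = 4), were called in IvF, at 2.17 and 1.24 on the log2 scale. That of spp-6 was lost without IvF replicates A, B or D at 1 h or A or C at 24 h, and that of spp-11 without A, B or C at 1 h or any of the 4 at 24 h. The fall of spp-22 in IvF, from 3.72 ± 0.932 to 2.07 ± 0.471 CPM, was -0.87 ± 0.24 (SE, adjusted p = 0.017) and was lost without IvF replicate A at 24 h. That of spp-23 in IvF, to 1.45, 0.815, 2.52 and 1.86 CPM, was -1.55 ± 0.49 (SE, adjusted p = 0.047), and its libraries in IvS at 24 h were at 1.74, 0.337, 3.095 and 0.238 CPM. The spp-23 call was lost without IvF replicates A or C at 1 h or A, B or D at 24 h.

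Members that did not pass the test with time included spp-14, at 555, 460.2, 489.6 and 360.5 CPM in IvF and 543, 563, 602 and 507 CPM in IvS at 24 h. For spp-10 the values were 157, 158, 128 and 139.5 CPM in IvF and 135, 145, 136 and 139.8 CPM in IvS, and for spp-1 23.6, 28.6, 26.9 and 20.6 CPM in IvF and 22.7, 23.6, 26.03 and 19.9 CPM in IvS. The levels of spp-17 were 1.24, 1.34, 4.55 and 1.92 CPM in IvF and 1.03, 0.4495, 2.38 and 0.297 CPM in IvS, and those of spp-25 3.51, 1.57, 2.25 and 2.26 CPM in IvF and 0.966, 1.69, 2.32 and 1.72 CPM in IvS, again without a call.

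The invertebrate-type lysozymes moved in both directions. For ilys-3, which is known from the digestion of bacteria in pharynx and intestine, the libraries were at 3.75, 2.26, 2.13 and 2.38 CPM in IvF and 3.49, 2.49, 2.73 and 2.62 CPM in IvS at 1 h, and at 3.41, 7.45, 4.67 and 5.82 CPM in IvF and 8.69, 12.3, 8.57 and 13.5 CPM in IvS at 24 h. It rose in IvS by 1.99 ± 0.39 (SE, adjusted p = 0.0022), without overlap. In IvF its log2 fold change was 0.93 ± 0.38 (SE, adjusted p = 0.14), and it was called when the IvF libraries were paired in a fit of their own.

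In contrast, ilys-5 was at 2.02, 0.582, 2.14 and 3.39 CPM in IvF and 0.772, 0.393, 1.49 and 0.416 CPM in IvS at 24 h. It fell by 2.96 ± 0.51 (SE, adjusted p = 7.0e-04) in IvS and by 1.70 ± 0.45 (SE, adjusted p = 0.014) in IvF. The latter had an adjusted p of 0.13 with the pairing in IvF libraries alone, and of 0.072 and 0.053 without IvF replicates C at 1 h or B at 24 h. Finally, ilys-2 was at 1.03, 2.97, 2.14 and 3.39 CPM in IvF and 2.704, 3.48, 3.26 and 1.901 CPM in IvS at 24 h, and its fall in IvF, -2.92 ± 0.79 (SE, adjusted p = 0.019), had an adjusted p of 0.12 with the pairing, and was -1.88 ± 1.27 (SE, adjusted p = 0.43) with the pairing in IvF libraries alone. Without IvF replicate A at 1 h it was -1.12 ± 0.63 (SE, adjusted p = 0.33), and it was also lost without IvF replicates A or C at 24 h (adjusted p = 0.067 and 0.052). Its libraries in F were at 0.803, 0.4603, 5.29 and 3.23 CPM and in S at 1.13, 0.644, 0.913 and 0 CPM, and those of ilys-3 were at 1.96, 0.6904, 2.21 and 1.61 CPM in F and 3.04, 2.68, 3.403 and 0.686 CPM in S.

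**Figure D3:**
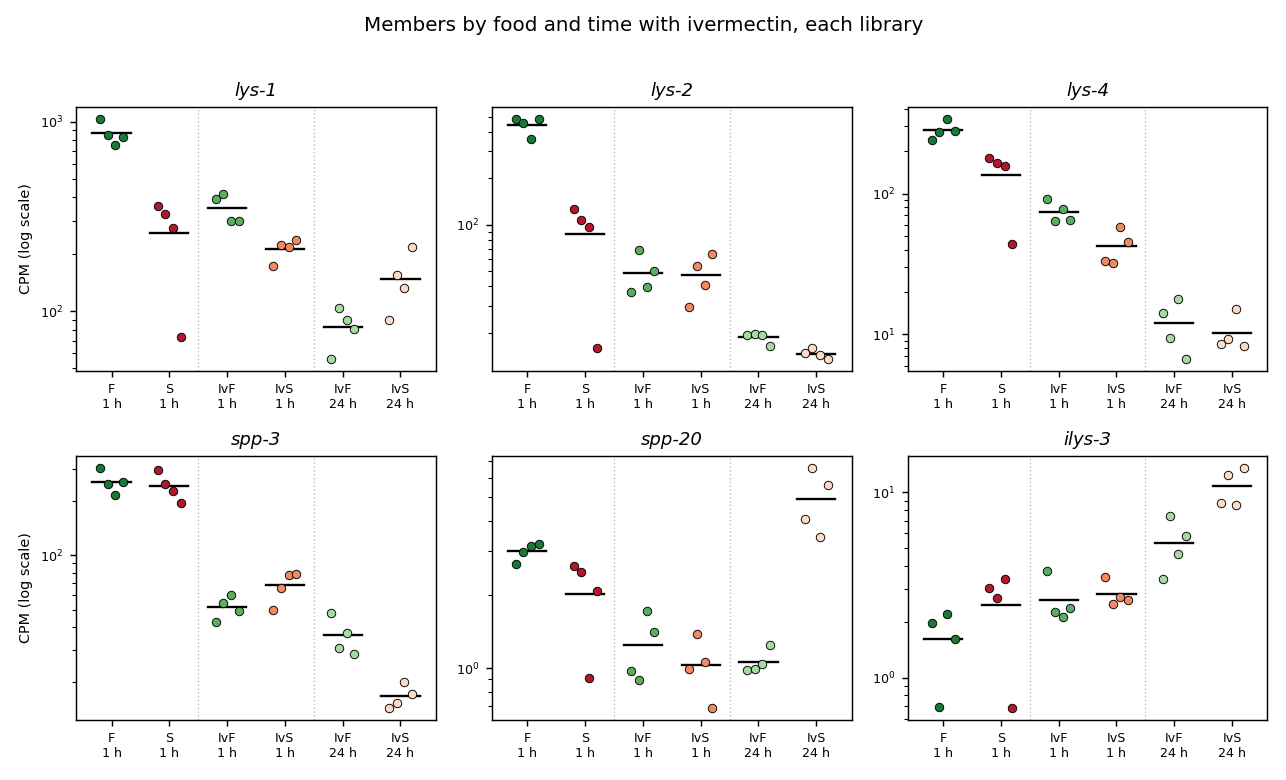
CPM (log scale) of 6 members is plotted by condition, 1 point per library, with bars at condition means. In lys-4 and lys-2 all libraries at 24 h lie below all libraries with ivermectin at 1 h, and in spp-20 the 4 IvS libraries at 24 h, at 3.43 to 6.58 CPM, stand above every other library with ivermectin.

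Defining genes of the intestine moved in the same comparisons. Of 10 intestine markers, all measured, 5 were higher in F than in S (elt-2, act-5, pept-1, pho-1 and cpr-1) and 2 lower (ges-1 and ifb-2). Without S replicate 4 the log2 fold change of elt-2 was 0.487, below the threshold, and its call was lost. None was at 0, as the lowest condition median was 1.37 CPM for mtl-2 and at least 8.60 CPM for the other 9. Their summed CPM was 2745 to 3148 in F and 1212 to 2979 in S, 3752 to 5710 in IvF and 2941 to 5361 in IvS at 1 h, and 1138 to 1839 in IvF and 923 to 1346 in IvS at 24 h. With time, 5 of the 10 fell in IvS and none rose, while 6 fell and 1 rose in IvF. Their part in the changes of the members was not tested.

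Markers of other tissues moved as well. Of 6 pharynx markers 0 were higher and 2 lower in F than in S, and 4 fell with time in IvS and 2 in IvF. Of 4 measured body wall muscle markers 1 was lower in F than in S and 2 fell with time in each of IvS and IvF, of 5 germline markers 4 were higher in F, and of 6 markers each of hypodermis and neurons none was called between F and S. The muscle marker hlh-1 had no reads in any library, and 3 of the 6 hypodermis markers (rol-6, dpy-13 and wrt-2) had medians below 1 CPM in F and S. Summed CPM of the germline markers was 51.0 to 65.5 in F and 18.3 to 31.6 in S. The summed CPM of the pharynx markers was 869 to 1414 in libraries without ivermectin and 2229 to 6369 in those with it. That of the muscle markers was 1958 to 3848 and 4936 to 11450. Much of the pharynx sum came from myo-1 and myo-2, with medians of 155 and 216 CPM in F and 1967 and 3097 in IvF at 1 h. In contrast, tnc-2 had medians of 454 in F and 227 in IvF, and ceh-22 had 23.5 and 22.6. Of the 6 pharynx markers 1 was higher and 4 lower in F than in IvF, and likewise in S than in IvS. The part of these tissue markers in the changes of the members was not tested either.

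Comparisons across ivermectin gave far more calls. Between F and IvF at 1 h, 28 of 37 members were higher in F and 2 lower, where 27.7% of all genes were higher and 33.1% lower (60.8% together), and the median log2 fold change was 1.76 over the members and -0.13 over all genes. In the starved pair, 25 were higher in S than in IvS and 1 lower, where 29.1% and 28.2% of all genes were (57.3% together), with medians of 1.41 and -0.04. Libraries did not overlap in 25 members higher and 1 lower in F than in IvF, with 21.8% and 33.9% of all genes, and in 17 and 3 in S and IvS, with 14.3% and 39.2%. The comparisons share their F and S libraries with F against S and their ivermectin libraries with IvF against IvS, and the 2 sets of libraries cannot be told apart from the drug.

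These differences moved with the length of the genes. Exons of the members had a median length of 566 bases, and those of the 17148 protein-coding genes tested 1280 bases. Of all genes with 400 to 600 bases of exons, 62.3% were higher in F than in IvF and 67.6% higher in S than in IvS, whereas of those above 2500 bases 6.56% and 3.22% were. With an offset for exon length 24 of the 37 members were called between F and IvF and 17 between S and IvS, where 56.4% and 49.5% of the 17148 genes with a length were. The part of length in the remaining calls was not tested. F against S was less affected, as 11.4% of genes with 400 to 600 bases were higher and 21.8% lower, and 17.5% and 12.6% of those above 2500 bases, and 13 of its 14 calls remained with the offset, spp-5 being the exception, while ilys-4, lys-4 and spp-19 were added (31.1% of genes were called with it).

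The largest values in F against IvF were those of the genes that rose with feeding, 6.59 ± 0.52 (SE, adjusted p = 1.5e-09) for spp-23, 5.68 ± 0.48 (SE, adjusted p = 2.8e-09) for spp-17, 3.71 ± 0.27 (SE, adjusted p = 1.6e-10) for spp-25, 3.47 ± 0.42 (SE, adjusted p = 3.4e-07) for lys-2 and 3.18 ± 0.42 (SE, adjusted p = 1.4e-06) for ilys-5. All 5 remained called with the length offset. In S against IvS the largest were 4.15 ± 0.56 (SE, adjusted p = 2.2e-06) for spp-2, 2.52 ± 0.23 (SE, adjusted p = 6.2e-09) for spp-5 and 2.51 ± 0.26 (SE, adjusted p = 2.7e-08) for spp-25. An exception was spp-6 at 2.56, which rested on low counts and lost its call with the offset. Over the 16 settings tried, the offset among them, spp-2 ran from 3.0 to 4.5, and spp-5 and spp-25 each from 1.3 to 2.7. All 3 kept their calls. The genes lower without ivermectin were ilys-1, with 5 reads in all F libraries and 1 in all S libraries against 91 in IvF and 63 in IvS at 1 h, and ilys-2 in F, at -2.54 ± 0.81 (SE, adjusted p = 0.0093). Without IvF replicate A the value of ilys-2 was -0.74 ± 0.64 (SE, adjusted p = 0.31). Of the 7 measured members without a call between F and IvF, lys-7 and lys-8 had -0.53 and 0.12, and between S and IvS -0.19 and -0.06. The level of lys-7 with ivermectin at 1 h was 35.01, 58.1, 31.3 and 41.5 CPM in IvF and 44.3, 54.4, 45.2 and 56.01 CPM in IvS.

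**Figure D4:**
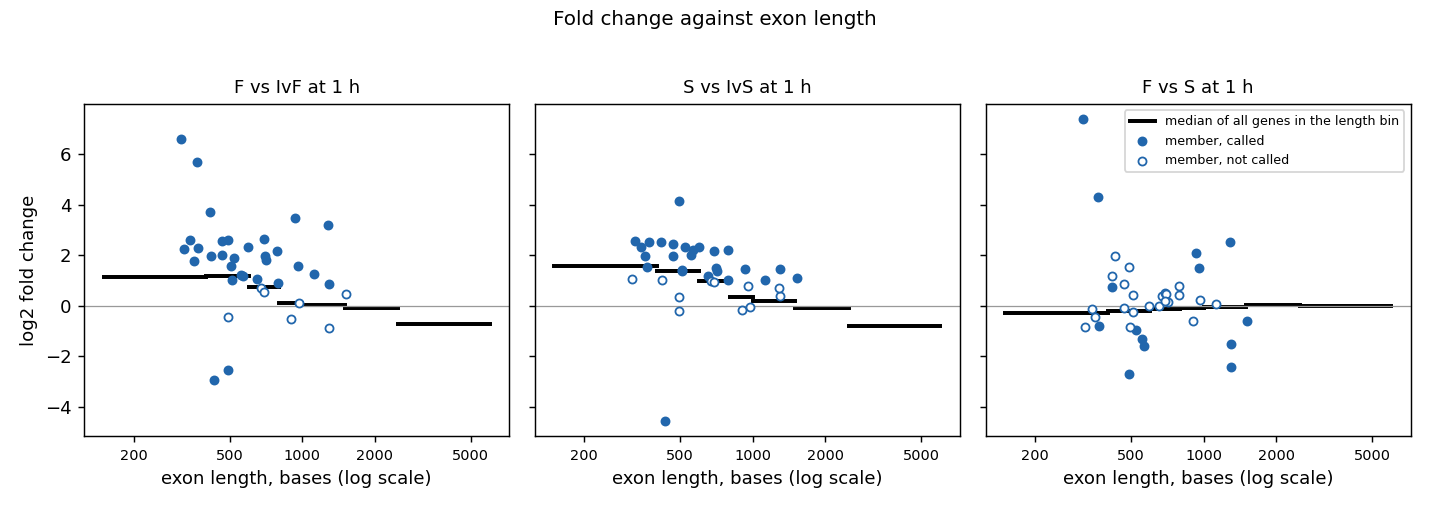
Log2 fold change of each measured member is plotted against its exon length (log scale) for 3 comparisons, filled where called. Black lines are medians of all protein-coding genes in bins of exon length, which fall from 1.14 below 400 bases to -0.73 above 2500 bases in F against IvF and stay between -0.29 and 0.02 in F against S.

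Many members lie in clusters of neighbouring genes. On the X chromosome, spp-3, spp-2, spp-6, spp-4 and spp-5 are adjacent. There spp-3 and spp-5 reached 371 and 1255 CPM per kilobase of coding sequence, while spp-2 was at 43.9 and spp-4 and spp-6 at 2.24 and 3.12. Feeding lowered spp-2 and spp-5, while the values of spp-3, spp-4 and spp-6 were -0.13, 1.18 and -0.85 and did not pass the test. The pair of spp-17 and spp-23 on chromosome I both rose, as described above.

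On chromosome V, lys-1 and lys-2 rose with feeding, and the adjacent lys-3 was at 10.97, 13.3, 9.03 and 13.97 CPM in F and 10.6, 12.02, 6.47 and 10.6 CPM in S, with a log2 fold change of 0.07 ± 0.27 (SE, adjusted p = 0.87). On chromosome IV, lys-4 is followed by lys-5 and lys-6, which were far lower at 3.32 and 4.58 CPM per kilobase against 145, and none of the 3 was called with feeding. The ilys-1, ilys-2 and ilys-3 genes are neighbours on the same chromosome, with 3.52, 9.92 and 10.2 CPM per kilobase. How the mapping divided reads among similar copies was not tested, so values of low neighbours of high genes are uncertain. Besides spp-15, exons of spp-1, spp-16, spp-19 and lys-8 overlap a gene on the opposite strand, over 19, 170, 84 and 38 bases.

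**Figure D5:**
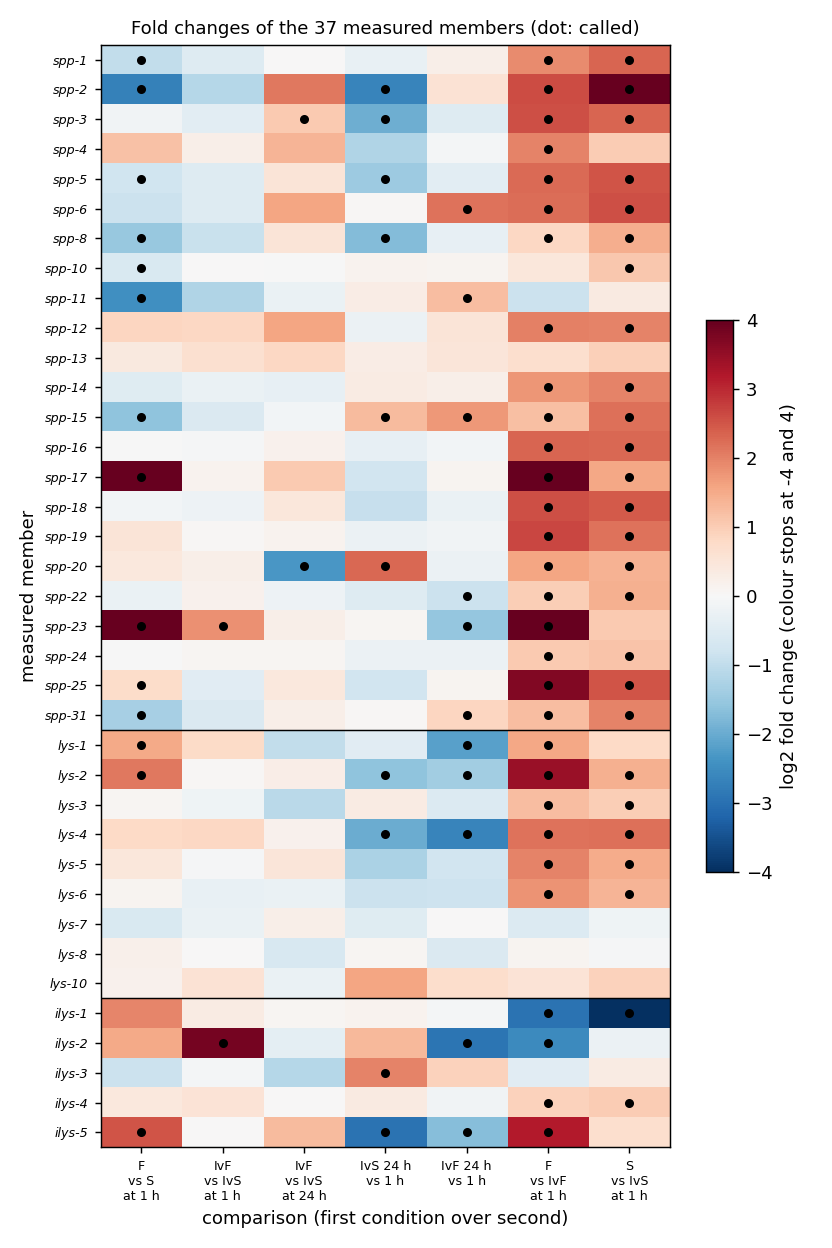
Colour gives the log2 fold change of the 37 measured members (rows, by family) in 7 comparisons (columns), and a dot marks a call. The columns across ivermectin hold 30 and 26 dots, while IvF against IvS has 2 at each time.

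Of 69 genes of other effector families, the defensin-like abf genes, the caenacins (cnc), the nlp and fip or fipr peptides and the thaumatin-like thn genes, 43 were measured, and 2 were higher and 11 lower in F than in S, which was not tested against the members. The largest falls were those of fip-4, -2.56 ± 0.60 (SE, adjusted p = 0.0018), nlp-28, -2.16 ± 0.21 (SE, adjusted p = 1.7e-08), and abf-2, -1.80 ± 0.36 (SE, adjusted p = 3.7e-04), and the rises those of fipr-3, 1.65 ± 0.48 (SE, adjusted p = 0.010), and cnc-6, 0.86 ± 0.30 (SE, adjusted p = 0.033). The call of fipr-3 was lost without F replicate 4, and that of cnc-6 without F replicates 1 or 4 or S replicates 1 or 3. Among the falls, that of fipr-22 was lost with any one F or S library left out. That of fip-2 was lost without F replicates 2, 3 or 4 or S replicates 1 or 3. The median log2 fold change of the 43 effector genes was -0.16, that of all genes -0.07 and that of the members 0.12. With ivermectin 1 was higher and 5 lower in IvF than in IvS at 1 h, and 0 and 1 at 24 h. With time 2 rose and 10 fell in IvS, and 5 rose and 7 fell in IvF.

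Of 27 regulators of intestinal immunity and their reporters, all measured, 4 were higher in F than in S and 8 lower. The infection response genes irg-4 and irg-5 rose by 4.51 ± 0.48 (SE, adjusted p = 1.9e-07) and 2.37 ± 0.49 (SE, adjusted p = 4.8e-04), and nhr-86, a nuclear hormone receptor gene, by 1.43 ± 0.15 (SE, adjusted p = 7.8e-08). The largest falls were those of sma-9, of the DBL-1/BMP pathway, -0.98 ± 0.17 (SE, adjusted p = 5.8e-05), irg-1, -0.88 ± 0.26 (SE, adjusted p = 0.011), and fshr-1, -0.81 ± 0.20 (SE, adjusted p = 0.0023). Among the other calls elt-2 was higher, a call lost without S replicate 4, and daf-16 was lower, with -0.68. The call of sma-6 as lower was lost without F replicates 1 or 4 or S replicates 1, 2 or 3. The p38 MAPK cascade genes nsy-1, sek-1 and pmk-1 were called lower with -0.72, -0.62 and -0.59, but S replicate 4 was the highest library for each, and without it the values were -0.43, -0.17 and -0.30 (adjusted p = 0.086, 0.39 and 0.19) and none was called. For sek-1 the S libraries were at 129.7, 182.7, 114.5 and 406.6 CPM, and the call was also lost without any one of the F libraries, as was that of nsy-1 without F replicate 1 and that of pmk-1 without F replicates 1, 3 or 4. In the same cascade tir-1 had 0.40 ± 0.19 (SE, adjusted p = 0.12) and was not called. With ivermectin 3 were higher in IvF than in IvS at 1 h (irg-4, irg-5 and nhr-86) and 1 at 24 h (irg-5), and none was lower.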

How the data were processed

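The authors deposited 1 table of raw read counts per gene for each of the 24 libraries, made from polyA RNA with a non-directional kit by aligning reads with Bowtie 1.1.2 to the WS210 genome and WS220 transcripts and counting with HTSeq (version not given in the sources used here). The counts carry no strand, and reads shared by genes were not counted. Total rows of HTSeq that name no gene were left out of library sizes and tests. CPM was computed here by dividing the deposited counts by the library's total over genes. Genes above 1 CPM in at least 4 libraries (19050) were scaled by TMM and fitted with edgeR 4.0.16 (R 4.3.3) as 6 condition means, with the robust quasi-likelihood test, log2 fold changes with SE from the F statistic, and Benjamini-Hochberg adjustment over all tested genes. The study used edgeR's exact test, which was an alternative, as were DESeq2 1.42.0 and its size factors, other filters, the replicate number as a block, a fit of the compared conditions alone and leaving out each library. An offset for exon length and a paired fit of IvF alone were chosen after the data were seen.

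Libraries had 8690378 to 19448998 reads on genes. No pair of libraries agreed within counting noise. The numbers of the ivermectin libraries were taken to pair IvF across time because same-numbered libraries deviated together there (correlations of deviations from the condition means of 0.57, 0.61, 0.25 and 0.81). Between F and S these correlations were also positive but lower, at 0.35, 0.07, 0.07 and 0.38, and no pairing was taken from them. In the remaining comparisons some or all were negative. Symbols, exon lengths, neighbours and exon overlaps came from an Ensembl annotation, release 115, of another build, so no coordinates are given. No sequences are shown. Values in every library are given for measured members that were called for food, time or an interaction and averaged 10 CPM or more in their highest condition, and for the 4 with the highest mean CPM, 19 in all. Those of lys-3, lys-7 and spp-20 were added after their values were seen, and the other members are given by range and count. The members and gene lists were chosen with earlier results of these data known.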

Additional observations from a re-analysis of the deposited data

Results flagged for a closer look

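In 7 groups 1 library lay far from the other 3 of its condition by Dixon's ratio, among 114 groups of 4 libraries examined (19 members in 6 conditions), where chance gives about 1 in 20. In S, replicate 4 was at 610.2 CPM for spp-8, against 118.7 to 177.8 in the others, and at 44.17 CPM for lys-4, against 157.8 to 179.1. In IvF at 1 h, replicate A was at 11.52 CPM for spp-15, against 7.566 to 7.677, and at 3.753 CPM for ilys-3, against 2.128 to 2.376. In IvS at 24 h, replicate C was at 110.8 CPM for spp-5, against 75.81 to 79.35, and at 15.09 CPM for lys-4, against 8.315 to 9.216. In IvF at 24 h, replicate D was at 16.34 CPM for lys-2, against 19.43 to 19.78.

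The effect of food at 1 h differed with ivermectin by the interaction term for spp-17 (4.14 on the log2 scale), spp-23 (5.55), spp-25 (1.20), lys-2 (2.04) and ilys-5 (2.50). With ivermectin the effect of food differed between 24 h and 1 h for spp-3 (1.44) and spp-20 (-2.54).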

How the results depend on the processing

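No fold change of a called member reversed under the alternatives, and values without a call were not followed. Of these values outside the leave-one-out fits, 695 kept their call and 41 lost it, and with each library left out 810 kept it and 62 lost it. Called members that the filter of 5 CPM or more removed were not tested there and are in neither count. Percentages in brackets below are the share of all tested genes called in the same fit. The number of members called between IvF and IvS at 1 h was 2 (5.56%). It was 1 with no filter on low counts (2.26%) and 1 among genes averaging 5 CPM or more (10%). It was 4 with the replicate block (7.2%), 5 in a fit of only those conditions (6.6%) and 0 to 3 with each library left out (3.79% to 5.42%). At 24 h it was 2 (0.777%), and was 4 with edgeR's exact test (1.16%), 4 with DESeq2 (1.36%) and 1 to 3 with each library left out (0.541% to 0.766%). In IvF over time it was 11 (9.92%). It was 7 with no filter (4.07%), 7 among genes averaging 5 CPM or more (18.3%) and 7 in a fit of IvF alone without the block (9.95%). With each library left out it was 8 to 10 (7.72% to 9.56%). Between S and IvS it fell from 26 (57.3%) to 17 with the exon length offset (49.5%), and left-out libraries gave 24 to 27 (50.1% to 56.5%). The interaction of food with ivermectin had 5 calls (10.3%), 8 with the replicate block (14.3%) and 4 to 6 with each library left out (8.56% to 13.6%). That of food with time had 2 calls (0.971%), 5 with DESeq2 (2.16%), 4 in a fit of only those conditions (1.62%) and 2 to 3 with each library left out. Left-out libraries gave 13 to 16 members for F against S (26.7% to 29.2%) and 9 to 11 for IvS over time (3.08% to 5.35%). For F against IvF they gave 28 to 30 (55.2% to 61.7%). With TMM-scaled CPM the summed level of all members was 5602 in F (5041 unscaled), 5360 in S (4192), 1705 in IvS at 1 h (1848) and 1250 in IvF at 24 h (1386). The causes of these changes were not tested.

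The paired IvF comparison over time gave 11 calls with the replicate block in the fit of all conditions (13.1% of all tested genes). Of these, 10 were shared with the fit without it. With IvF alone it gave 12 (15%), 9 of them shared. In the other comparisons no pairing was taken from the shared numbers. There the block gave 16 calls for F against S (30.8% of all tested genes), with lys-4 and lys-7 added. It gave 4 for IvF against IvS at 1 h (7.2%), with spp-1, spp-2 and spp-11 added and ilys-2 lost. For IvF against IvS at 24 h it gave 3 (1.34%), for IvS over time 11 (8.68%) and for the interaction of food with time 3 (1.84%). No paired analysis was possible for F against IvF and S against IvS because their labels share no replicate numbers. Numbers in the names of the deposited tables coincide for 3 libraries of each condition, but were not used to pair libraries and that pairing was not tested. The exact test has no interaction term. Depth limits the low members, of which 8 lay between 1.94 and 4.58 CPM per kilobase.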
